A study of Mus musculus with 4 samples.

Results

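The 84 genes described here encode the proteins of the cytosolic ribosome and a small set of close relatives of them, out of 19321 genes in the deposited table. They were taken by symbol: 76 core ribosomal protein genes (Rpl or Rps and a number with at most a short suffix, with Rplp0, Rplp1 and Rplp2), of which 46 belong to the large subunit and 30 to the small subunit, and 8 paralogs whose symbol carries an l (Rpl39l, Rpl10l, Rps27l, Rpl22l1, Rpl36al, Rpl7l1, Rpl6l and Rpl3l). Left out were 10 Rps6k kinase genes, 14 names with -ps, and Rps27rt, Rps19bp1 and Rpsa. Membership went by symbol alone, without a measured value, although the rule was set with earlier results of these data known.

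Single cells were taken from the whole gonads of XX embryos of the C57BL/6 strain at embryonic stages E11.5 through E14.5, sampled each day, all untreated and with no named mutation, as 1 10x Chromium 3′ library (version 2 chemistry) per stage. The number of embryos behind each library is not given in the sources used here. Cells were placed by markers. A germ cell had at least 3 of the 6 genes Dazl, Ddx4, Dnd1, Mael, Dppa5a and Mov10l1 above 0, which gave 245, 659, 763 and 2412 germ cells in stage order. A somatic cell had at most 1 of them and under 5% globin UMIs, which gave 4351, 3969, 3838 and 2011 cells; a UMI, or unique molecular identifier, stands for 1 captured mRNA molecule. Levels are counts per 1000000 UMIs of the summed cells of a class (CPM). With 1 library per stage there is no replicate, stage and library cannot be told apart, and no difference below has a test. The intervals given are 95% and cover counting error only, and "passed the rule of size" means that both sums together held 50 or more UMIs, the higher of them reached 20 CPM, they differed 1.5-fold or more, and their Poisson intervals did not overlap.

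Every ribosome joins a large and a small subunit, each built from ribosomal RNA and a fixed set of proteins, so the core genes are transcribed in nearly every cell and are usually regarded as a single co-expressed block. Their mRNAs are a main part of the transcriptome of growing cells, and their translation is controlled through a pyrimidine-rich start of the mRNA. Several of them have a second gene that makes a similar protein. It is often a copy with no intron in its coding sequence, placed on an autosome by reverse transcription. Some such copies, Rpl39l and Rpl10l among them, are known for their use in the male germ line. Between the stages sampled here, female germ cells settle in the gonad, divide as oogonia and begin meiosis.

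The 4802, 4754, 4762 and 4702 cells kept held 69458291 to 80377418 UMIs per library. Germ cells were sampled more deeply than somatic cells, with median totals of 31268, 27795, 24869 and 15551.5 UMIs against 13786, 12142, 10448 and 10079. The summed level of the 6 supporting cell markers (Wnt4, Wnt6, Fst, Irx3, Amhr2 and Runx1) was 42.0 to 65.1 CPM in germ cells and 830 to 1078 CPM in somatic cells, and the 6 germ cell markers, which define the classes, stood at 2170 to 3325 CPM and 18.9 to 27.6 CPM. The mitochondrial share was 2.73% to 3.33% in germ cells and 3.33% to 4.29% in somatic cells. Of the barcodes kept, 172 occurred in more than 1 library; without their cells the ribosomal protein share of germ cells was 40.3%, 38.8%, 40.9% and 36.5%, equal to the values below at this precision.

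The sequences of the pairs come first, because a 3′ count can set Rpl39l beside Rpl39 only if their mRNAs can be told apart. The coding sequences below are from GENCODE release M21 on GRCm38 (mm10), spliced, 5′ to 3′ on the gene's strand, with capitals at each base that differs within the pair. Rpl39l lies on the plus strand and its coding sequence sits in 1 exon at chr16:10174310-10174465, while that of the X-linked Rpl39 spans chrX:37082701-37085127 on the minus strand. Rps27l spans chr9:66946175-66949357 on the plus strand and Rps27 spans chr3:90212725-90213615 on the minus strand.
Rpl39l: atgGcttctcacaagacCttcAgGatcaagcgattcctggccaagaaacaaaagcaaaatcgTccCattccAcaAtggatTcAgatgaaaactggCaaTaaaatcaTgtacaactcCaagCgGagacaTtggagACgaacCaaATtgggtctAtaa
Rpl39: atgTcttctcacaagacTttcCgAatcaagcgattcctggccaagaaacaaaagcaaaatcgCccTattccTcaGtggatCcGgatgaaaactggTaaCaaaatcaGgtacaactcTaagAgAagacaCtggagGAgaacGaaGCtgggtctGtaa
Rps27l: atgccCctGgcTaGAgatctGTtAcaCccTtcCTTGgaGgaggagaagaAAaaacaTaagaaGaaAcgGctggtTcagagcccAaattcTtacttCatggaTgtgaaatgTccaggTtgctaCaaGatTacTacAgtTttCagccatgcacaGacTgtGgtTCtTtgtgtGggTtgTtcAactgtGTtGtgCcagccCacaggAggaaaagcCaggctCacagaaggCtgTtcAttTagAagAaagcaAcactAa
Rps27: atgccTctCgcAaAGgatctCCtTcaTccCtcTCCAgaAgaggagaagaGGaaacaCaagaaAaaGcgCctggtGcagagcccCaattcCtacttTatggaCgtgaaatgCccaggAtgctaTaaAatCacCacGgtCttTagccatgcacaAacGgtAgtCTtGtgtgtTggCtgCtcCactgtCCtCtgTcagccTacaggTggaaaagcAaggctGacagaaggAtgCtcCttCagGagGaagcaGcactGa

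The Rpl39 pair differed at 23 of 156 bases (85.3% identity) and the Rps27 pair at 61 of 255 bases (76.1%), with no gap in either. Rpl10l and Rpl10 were 84.8% identical, Rpl36al and Rpl36a 87.9%, Rpl3l and Rpl3 73.2%, Rpl22l1 and Rpl22 66.9%, and Rpl7l1 and Rpl7 51.7%. None of the 351 stretches of 50 bases in the last 400 bases of any of these 7 paralog transcripts occurred in its partner. Copies elsewhere in the genome are a different matter. For 42 of the 76 core genes over 50% of these stretches were shared with another annotated gene, with a median of 59.5%, and 14 core genes shared none. Single genes named below, paralogs included, therefore carry an uncertainty that the counts do not show, since the way multi-mapping reads were handled is not given in the sources used here. The shared part was 0% for Rpl39l, Rpl10l and Rpl37, 12% for Rpl14, 18.5% for Rps25, 19.4% for Rplp0 and 25.9% for Rpl39. It was 57.0% for Rplp1, 91.5% for Rps13, 96.0% for Rps12, 98.6% for Rps27 and 100% for Rpl10 and Rpl36a. Among the other paralogs it was 78.6% for Rpl36al, 59.5% for Rpl22l1, 28.8% for Rps27l, 1.71% for Rpl7l1 and 0% for Rpl3l.

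The core genes made up a larger part of the mRNA of germ cells than of somatic cells at each of the 4 stages. They took 40.3%, 38.8%, 40.9% and 36.5% of all germ cell UMIs in stage order, and 27.5%, 32.6%, 33.6% and 31.4% of somatic UMIs. The germ cell share was thus highest at E11.5 and E13.5 and lowest at E14.5, and the somatic share lowest at E11.5. The log2 ratio of germ to somatic share was 0.55 at E11.5 (interval 0.55 to 0.56) and 0.25, 0.28 and 0.22 at the later stages. Both subunits shared in this: large subunit genes took 23.5%, 22.6%, 23.9% and 21.3% of germ cell UMIs against 15.9%, 18.7%, 19.2% and 17.9% of somatic ones, and small subunit genes took 16.9%, 16.2%, 17.0% and 15.2% against 11.6%, 13.9%, 14.4% and 13.49%.

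Cell by cell, the classes were nearly separate at E11.5 and overlapped later. The median germ cell had a share of 40.6%, 38.8%, 40.7% and 36.3%, and the median somatic cell 27.4%, 32.8%, 33.4% and 31.5%. At E11.5 all 245 germ cells (100%) lay above the somatic median, and at the later stages 96.4%, 97.4% and 92.2% did. The part of germ cells above the 90th percentile of somatic cells was 98.8%, 64.9%, 73.4% and 52.6%. The range within a class was wide, from 10.1% to 47.9% among germ cells at E14.5. The germ cell class had no globin limit, and 29 of its cells at E14.5 had at least 5% globin UMIs. Depth moved with the share inside a class: across cells, Pearson's r between the share and the log2 UMI total was 0.09, 0.20, 0.42 and 0.37 in germ cells and 0.00, 0.06, 0.36 and 0.10 in somatic cells. These are descriptions over cells of 1 library each. With only cells of at least 9791 UMIs, the log2 ratio of germ to somatic share was 0.24 at E13.5 and its E14.5 to E11.5 ratio in germ cells was -0.14.

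**Figure D1:**
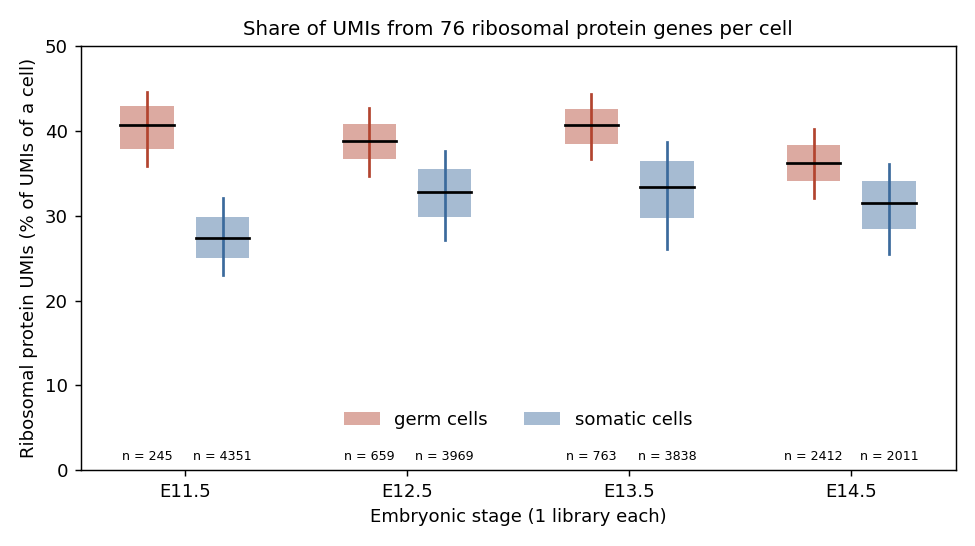
Share of each cell's UMIs (%) that came from the 76 core ribosomal protein genes, by stage and class. Black lines are medians, boxes the 25th to 75th percentile and vertical lines the 10th to 90th percentile over cells of 1 library, with the number of cells below. The germ cell medians lie between 36.3% and 40.7% and the somatic medians between 27.4% and 33.4%, and at each stage the germ cell median is the higher one.

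The somatic classes lay below the germ cells. Among supporting-like, interstitial-like and surface epithelium-like cells the core share ranged, stage by stage, over 26.7% to 27.8%, 30.5% to 33.8%, 32.7% to 34% and 30.7% to 31.3%. Endothelial-like cells (41 to 184 per stage) had 27.9%, 31.2%, 31.3% and 30.2%, and immune-like cells (13 to 40 per stage) had 28.3%, 28.7%, 29.7% and 29.4%. Each of these values lies below the germ cell share of its stage. Erythroid cells, in which globin genes took 64.7%, 51.6%, 40.1% and 25.7% of UMIs, had core shares of 11.9%, 14.9%, 20.6% and 24.9%.

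Seen gene by gene, the higher germ cell level was broad in direction and modest in size. All 76 core genes met the minimums at every stage. Of them 74, 63, 64 and 58 were higher in germ cells in stage order, with median log2 ratios of 0.52, 0.21, 0.27 and 0.26. The medians over all genes tested were -0.38, -0.18, -0.10 and -0.03, so the core genes sat above the middle of the transcriptome at each stage. The rule of size was passed upward by 28 core genes at E11.5, where 20% of all genes tested were called higher, and by 10 at each of the next 3 stages, where 23.9%, 27.7% and 27.8% of all genes were. In share these are 36.8%, 13.2%, 13.2% and 13.2% of the core genes, above that background at E11.5 and below it later. Downward, 0, 0, 0 and 1 core genes passed, where 43.0%, 37.2%, 36.4% and 33.4% of all genes were called lower. With libraries scaled so that the median of all genes is 0, the counts called higher were 70, 19, 16 and 11. Those merely higher were 76, 73, 68 and 60. At that scaling 1950 of 6141, 1862 of 6348, 2002 of 6512 and 1928 of 6699 genes tested were called higher. In share the core genes were again above that background at E11.5 and below it later. Called lower were 0, 0, 0 and 1 core genes, and 1982, 2095, 2208 and 2205 of all genes.

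The pattern over genes was similar at neighbouring stages and less so at distant ones. Across the 76 genes, Pearson's r of the log2 germ to somatic ratios was 0.96 between E11.5 and E12.5, 0.91 between E12.5 and E13.5, 0.87 between E13.5 and E14.5, and 0.55 between E11.5 and E14.5. The genes are not independent of each other, and within a stage all of them share the 2 library sums. In direction, 55 core genes were higher in germ cells at all 4 stages, 20 were mixed, and Rpl10 was lower at all 4. The direction of Rpl10 depended on the scaling, since it had 0.24 at E11.5 with the median of all genes at 0, while a total that left out mitochondrial, globin and ribosomal protein genes gave it 0.07 and 0.02 at the last 2 stages. The 7 genes that passed the rule of size upward at every stage were Rplp1, Rplp2, Rps28, Rpl18, Rps23, Rpl14 and Rpl19, and 45 passed it upward at none. How many of all genes passed it upward at every stage, or at none, was not counted, so these 2 counts have no background.

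**Figure D2:**
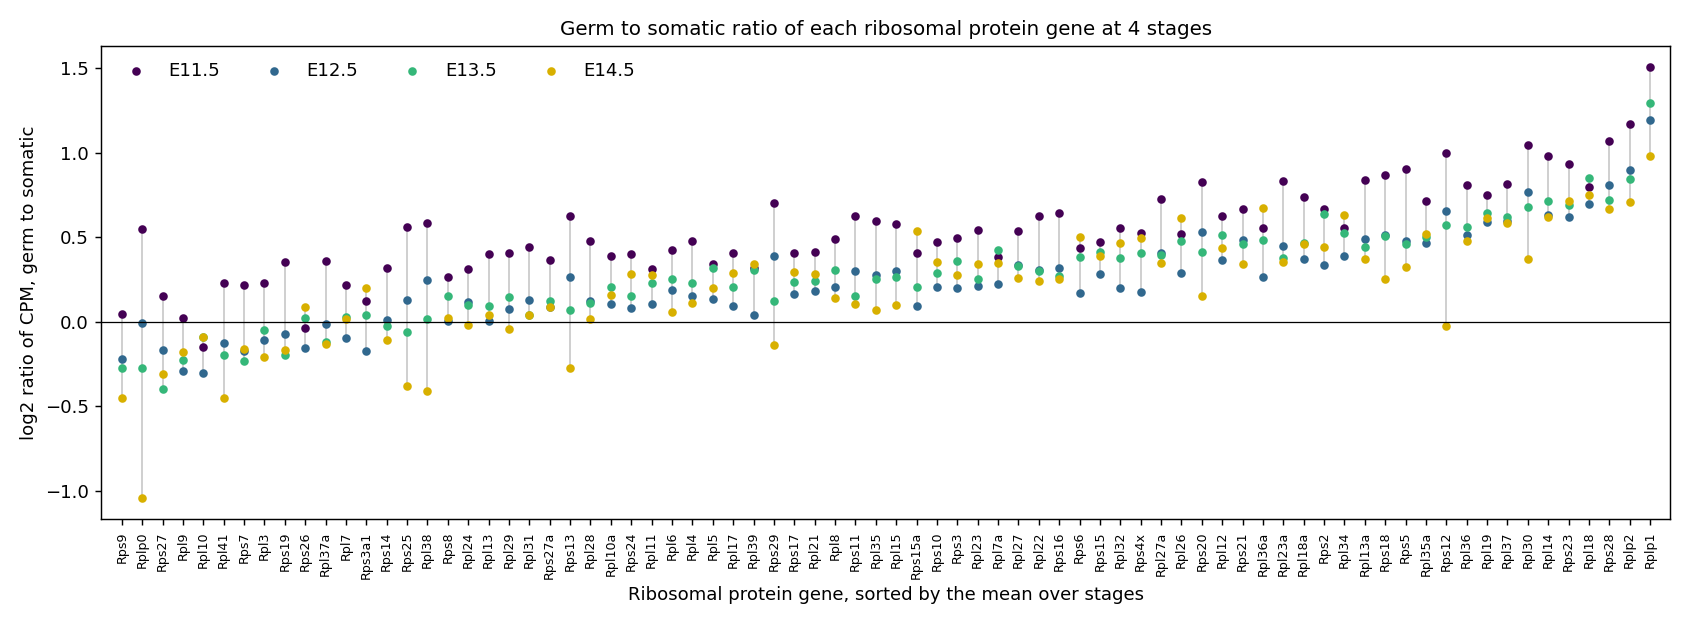
Log2 ratio of the CPM of germ cells to that of somatic cells for each of the 76 core genes (horizontal axis, sorted by the mean over stages), with 1 point per stage joined by a grey line. Most points lie above 0, E11.5 is the highest stage for 65 genes, Rplp1 stands at the right end with 0.98 to 1.504, and Rplp0 reaches -1.04 at E14.5.

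The acidic stalk proteins held both extremes. On the large subunit, Rplp0 forms the base of a stalk and Rplp1 and Rplp2 its mobile arms, which recruit translation factors. Rplp1 had germ cell levels of 8955, 9155, 9834 and 8454 CPM and somatic levels of 3156, 3996, 4006 and 4276 CPM, 1.98-fold to 2.84-fold higher, with log2 ratios of 1.504, 1.196, 1.30 and 0.98. Rplp2 stood at 8825, 8551, 8291 and 6577 CPM against 3914, 4597, 4618 and 4017 CPM. Both were higher in germ cells at every stage and both had their largest ratio at E11.5. The level of Rplp0 in germ cells was 5873, 4895, 3982 and 2565 CPM and in somatic cells 4006, 4916, 4812 and 5272 CPM. Rplp0 thus began higher in germ cells, with a log2 ratio of 0.55, was level at E12.5 with -0.01, and ended at -1.04, the only core gene called lower in germ cells at any stage.

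Among other large subunit genes, Rpl18 was at 4696, 4839, 5248 and 4733 CPM in germ cells against 2697, 2989, 2905 and 2812 CPM, with log2 ratios of 0.70 to 0.85. Rpl14 had log2 ratios of 0.98, 0.63, 0.71 and 0.62 and Rpl37 had 0.82, 0.60, 0.62 and 0.58, the last below the 1.5-fold limit. Rpl30, which also binds its own transcript in yeast, had 1.04, 0.77, 0.68 and 0.37 and likewise passed at the first 3 stages only. On the small subunit, Rps28 stood at 8618, 7279, 8740 and 5784 CPM in germ cells against 4109, 4157, 5311 and 3636 CPM. Rps23, which lies at the decoding centre, had log2 ratios of 0.93, 0.62, 0.69 and 0.72. These small subunit genes passed the rule at all 4 stages, and the ratios of each were highest at E11.5.

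Between E11.5 and E14.5 the 2 classes went in opposite directions. The log2 ratio of the core share was -0.14 in germ cells and 0.19 in somatic cells. In germ cells the steps were -0.06, 0.07 and -0.16, so that most of the difference lay between E13.5 and E14.5. In somatic cells they were 0.25, 0.04 and -0.10, so the classes differed in direction at the first step only. Of the 76 core genes, 52 were lower and 24 higher at E14.5 in germ cells, with a median of -0.15 where the median of all genes tested was 0.29. In somatic cells 9 were lower and 67 higher, with a median of 0.19 beside -0.03 for all genes. For 43 genes the germ cell value was lower and the somatic value higher. With the median of all genes at 0, the germ cell split was 72 lower and 4 higher.

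The rule of size was passed in germ cells by 8 core genes, all lower at E14.5, where 16.6% of all genes tested were called lower; 0 were called higher, where 37.0% of all genes were. These 8 are 10.5% of the core genes. Rplp0 led with a log2 ratio of -1.19 (values above). Rpl38, which has been tied to the translation of Hox mRNAs in the embryo, followed at 4430, 3653, 3404 and 2072 CPM in germ cells, a log2 ratio of -1.10, while somatic cells had 2958, 3075, 3359 and 2748 CPM. Rps25, which is needed for translation from some internal ribosome entry sites, stood at 3418, 2892, 2579 and 1945 CPM (-0.81), and at 2315, 2644, 2685 and 2530 CPM in somatic cells. Each of these was lower at every successive stage in germ cells, as 20 core genes were, and the somatic levels showed no such order.

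The remaining 5 were Rps13, Rpl41, Rps12, Rpl27 and Rpl30. Rps13 had 4124, 3747, 3378 and 2471 CPM in germ cells (-0.74) and Rps12 had 4603, 4520, 4195 and 2928 CPM (-0.65). Their somatic levels were higher at the end, by log2 ratios of 0.16 and 0.37. Rpl41, whose product is among the shortest proteins known, stood at 12380, 10501, 10384 and 7730 CPM in germ cells (-0.68), with a somatic log2 ratio of 0.00. Rpl27 differed in that its somatic level was lower too, with -0.62 in germ cells and -0.34 in somatic cells. The log2 ratio of Rpl30 was -0.60 in germ cells, just past the limit, and 0.07 in somatic cells. Over the last step alone, from E13.5 to E14.5, 3 core genes passed the rule downward, namely Rpl38, Rplp0 and Rps28, and 0 upward, where 9.21% of all genes tested were called lower and 21.6% higher. Between E12.5 and E13.5, 1 core gene passed upward, Rpl39, with a log2 ratio of 0.59 and 0 downward, where 5.19% of all genes were called higher and 4.37% lower. Between E11.5 and E12.5 the counts were 0 and 0, where 10.6% of all genes were called higher and 1.74% lower.

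In somatic cells 0 core genes passed the rule between E11.5 and E14.5, where 9.97% of all genes tested were called higher and 7.81% lower. The largest values were those of Rpl13, Rps19, Rplp1 and Rplp0. Rpl13 stood at 5743, 7848, 7923 and 8311 CPM, a log2 ratio of 0.53, and Rps19, whose human gene is mutated in Diamond-Blackfan anaemia, at 5601, 7412, 7721 and 7977 CPM (0.51). Rplp1 had 0.44 and Rplp0 0.40. For each of these 4 genes the lowest somatic level was at E11.5.

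**Figure D3:**
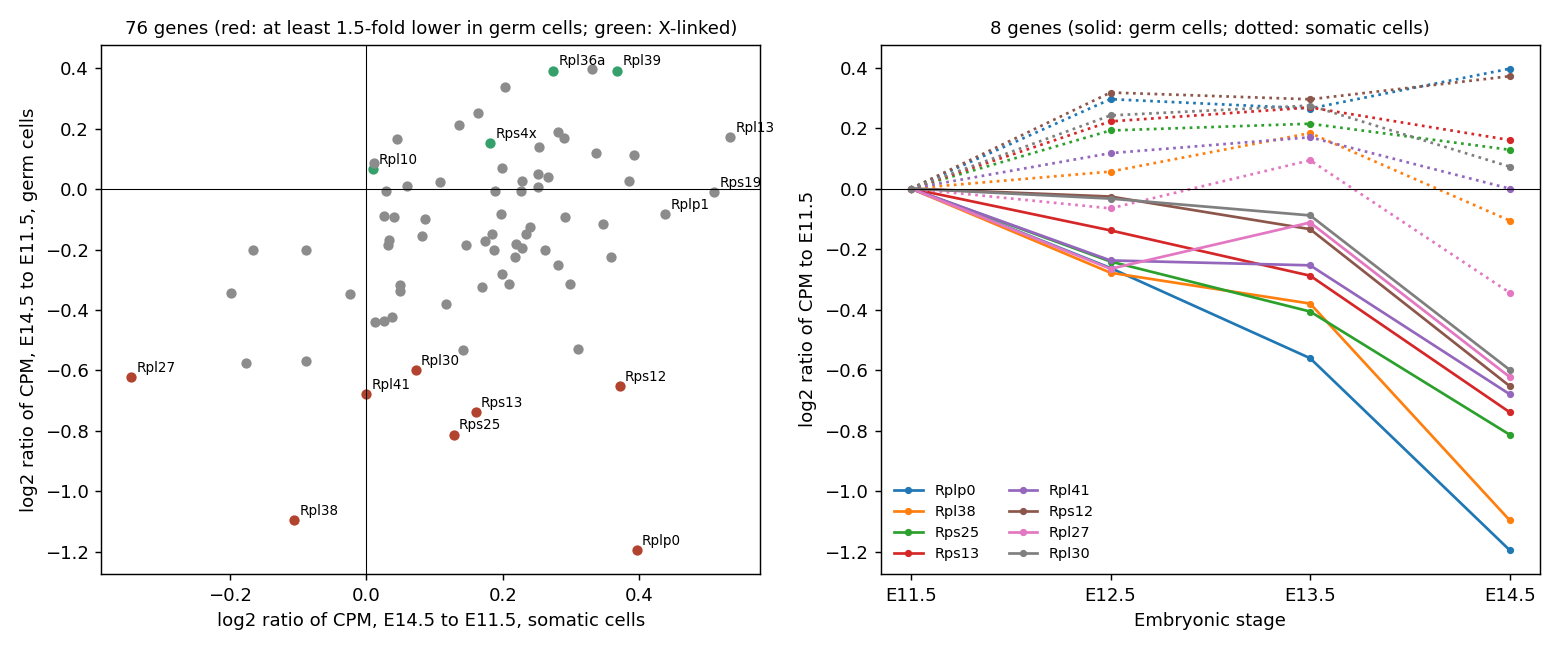
Left, log2 ratio of CPM at E14.5 to E11.5 for the 76 core genes, in somatic cells (horizontal) and germ cells (vertical); red points are at least 1.5-fold lower in germ cells and green points are X-linked. Right, log2 ratio of CPM to E11.5 by stage for the 8 genes called lower, with solid lines for germ cells and dotted lines for somatic cells. The 8 genes lie between -0.60 and -1.19 in germ cells and between -0.34 and 0.40 in somatic cells.

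The 4 X-linked core genes are the partners of several paralogs (Rpl39, Rpl10, Rpl36a) with Rps4x beside them. In germ cells Rpl39 was at 3732, 3515, 5288 and 4899 CPM and Rpl36a at 3781, 3803, 4571 and 4962 CPM. Both were lower at the first 2 stages and had a log2 ratio of 0.39 between E11.5 and E14.5. Rps4x had 0.15 and Rpl10 0.07, and both of these turned negative with the median of all genes at 0 (-0.14 and -0.22), where the other two had 0.10 each. As a part of the ribosomal protein UMIs, which does not depend on that scaling, the 4 genes held 4.19%, 4.26%, 5.16% and 5.49% in germ cells and 4.98%, 4.93%, 5.18% and 4.99% in somatic cells. The germ cell part was below the somatic one at the first 2 stages and above it at E14.5.

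Among the l paralogs, Rpl39l was the one found almost wholly in germ cells at a substantial level. It had germ cell levels of 300.2, 340, 221 and 146 CPM and somatic levels of 1.68, 2.57, 2.14 and 2.39 CPM. Its germ cell level peaked at E12.5 and was lowest at E14.5, 0.485 times that at E11.5, a log2 ratio of -1.04. Of the UMIs of the pair, which a 3′ count makes comparable without a length, Rpl39l held 7.44% (interval 7.16% to 7.74%), 8.83%, 4.01% and 2.89% in germ cells and 0.0559%, 0.0753%, 0.0501% and 0.0618% in somatic cells. The intervals of the germ cell values do not overlap between any 2 stages. With each cell thinned to 4000 UMIs, 66.9%, 71.8%, 53.2% and 41.5% of germ cells had an Rpl39l UMI, and 0.529%, 1.06%, 0.886% and 1.14% of somatic cells did. Without thinning the shares were 97.6%, 98.9%, 94.6% and 84.2% against 2.09%, 2.90%, 2.47% and 2.78%.

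As a percentage of the germ cell level, the somatic level of Rpl39l was 0.558%, 0.755%, 0.968% and 1.64%. It was set beside Stra8, Smc1b, Sycp3 and Pou5f1, germ cell mRNAs that did not define the classes. Their values ran from 0.554% (Sycp3) to 1.41% (Smc1b) at E11.5, where Stra8 had no UMI, from 0.587% (Pou5f1) to 1.002% (Stra8) at E12.5, from 0.814% (Smc1b) to 1.35% (Sycp3) at E13.5 and from 1.26% (Stra8) to 1.77% (Pou5f1) at E14.5. The value of Rpl39l lay within the range of its stage, and the part of free RNA in its somatic UMIs was not tested. Rps27l, by contrast, stood in somatic cells at 34.2%, 27.0%, 26.3% and 31.2% of its germ cell level.

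Rpl10l, the autosomal relative of the X-linked Rpl10 that is known from meiotic spermatocytes, was also found in germ cells but near the floor of detection. It had 14.4, 16.8, 12.3 and 10.3 CPM in germ cells, from 114, 328, 242 and 418 UMIs, and 4, 3, 3 and 5 UMIs in all somatic cells of the 4 stages. Its part of the pair was 0.371%, 0.426%, 0.273% and 0.253% in germ cells. It stayed under 20 CPM and did not enter the rule of size. Rpl3l, known from heart and skeletal muscle, had at most 2.19 CPM in any germ cell sum and is listed here for completeness.

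Rps27l, which is known as a p53 target, was high in both classes and higher in germ cells. It had germ cell levels of 1866, 2099, 1898 and 2108 CPM and somatic levels of 637, 566, 499 and 657 CPM. The log2 ratios were 1.55, 1.89, 1.93 and 1.68, and it passed the rule at all 4 stages. Of the UMIs of Rps27l and Rps27 it held 26.4%, 31.2%, 27.9% and 31.8% in germ cells and 12%, 9.85%, 7.17% and 10.5% in somatic cells. The 3′ stretches shared with other genes were 98.6% for Rps27 and 28.8% for Rps27l, and the part of multi-mapping reads in these values was not tested. The partner Rps27 had log2 germ to somatic ratios of 0.15, -0.16, -0.40 and -0.31, so within the pair the paralog was the one higher in germ cells at all 4 stages.

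Rpl36al, an autosomal relative of Rpl36a, was lower in germ cells at each later stage, at 1379, 1333, 1181 and 880 CPM, while somatic cells had 824, 770, 700 and 764 CPM. Its part of the pair was 26.7%, 26.0%, 20.5% and 15.1% in germ cells and 24.2%, 19.6%, 17.7% and 19.7% in somatic cells, so that the germ cell part, above the somatic one at first, was below it at E14.5. Here the shared 3′ stretches were 100% for Rpl36a and 78.6% for Rpl36al, with the same limit. Rpl22l1 ran the other way within its pair, with 38.1%, 40.7%, 45.1% and 50.1% in germ cells and 50.02%, 49.9%, 54.2% and 58.8% in somatic cells. Its own level was 1229, 1275, 1537 and 1592 CPM in germ cells and 1295, 1493, 1802 and 1910 CPM in somatic cells. The germ to somatic log2 ratio was -0.07 at E11.5, which turned to 0.31 with the median of all genes at 0. At the later stages it was -0.23, -0.23 and -0.26, and no alternative setting turned these signs. In both classes Rpl22l1 had a larger part of its pair at E14.5 than at E11.5.

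Rpl7l1, which acts in the assembly of the large subunit in the nucleolus, was the only paralog called lower in germ cells. It had 82.6, 62.4, 56.9 and 62.6 CPM there and 128, 105, 97.7 and 115 CPM in somatic cells, and passed the rule downward at all 4 stages. Rpl6l, which matched no coding transcript, had 46.7, 34.1, 49.3 and 32.1 CPM against 33.2, 32.5, 44.5 and 29.5 CPM and passed at none. Taken as a set, the 6 paralogs that met the minimums had 3, 3, 3 and 2 called higher in germ cells, where 20%, 23.9%, 27.7% and 27.8% of all genes tested were, and 1 called lower at each stage, where 43.0%, 37.2%, 36.4% and 33.4% were.

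**Figure D4:**
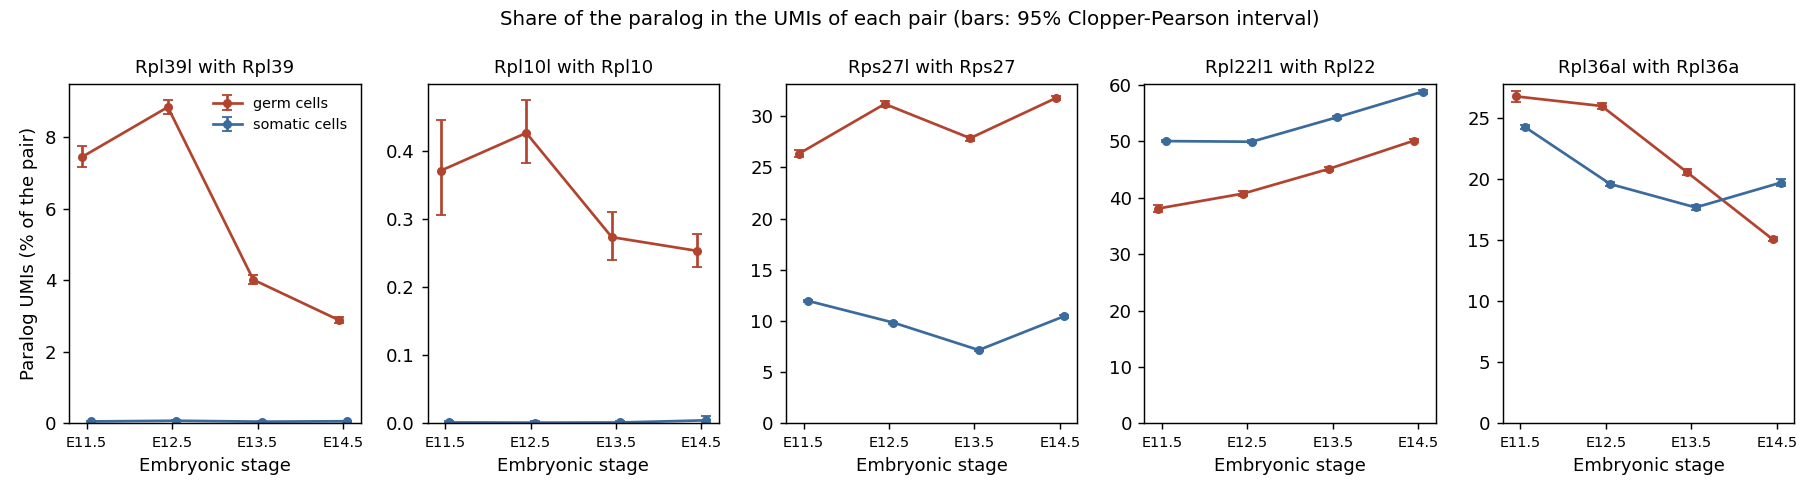
Part of the UMIs of each pair (%) that belonged to the l paralog, by stage, in germ cells and somatic cells; bars are 95% Clopper-Pearson intervals of counting error and each panel has its own axis from 0. Rpl39l goes from 7.44% to 2.89% in germ cells with a maximum of 8.83%, Rps27l stays between 26.4% and 31.8%, and Rpl36al crosses below its somatic value at E14.5.

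Comparisons inside 1 library are free of the mixing of stage and library. At E13.5, Stra8, the gene that marks entry into meiosis, had a UMI in 224 germ cells after thinning and none in 539. The core share was 40.8% with and 40.9% without Stra8, a log2 ratio of -0.01, and 0 core genes passed the rule, where 3.88% of all genes were called higher and 3.21% lower. Rplp0 was nevertheless at 3380 against 4204 CPM (log2 -0.31), Rps25 at 2251 against 2700 CPM (-0.26), Rpl38 at 2985 against 3559 CPM (-0.25), and Rpl39l at 171 against 239 CPM (-0.48). All 8 genes called lower at E14.5 were lower in the cells with Stra8, by -0.04 to -0.31, whereas the 76 core genes divided into 40 higher and 36 lower. Cells with Stra8 were shallower, with a median of 22349 against 25739 UMIs, and the part of depth in these differences was not tested.

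At E14.5 the germ cells were divided by Sycp3, an axis protein of meiotic chromosomes, and Pou5f1, which germ cells lose as meiosis proceeds. The core share was 37.6% in 543 cells with Pou5f1 only, 36.6% in 486 with both, 37.0% in 452 with neither and 35.5% in 931 with Sycp3 only. Between the first and the last group the log2 ratio was -0.08, with 63 core genes lower and 13 higher in cells with Sycp3 only, and 0 passed the rule (19.7% of all genes were called higher and 11.6% lower). The 8 genes were again all lower, by -0.17 to -0.31, with Rpl30 at 1645 against 2041 CPM and Rplp0 at 2308 against 2838 CPM. Rplp1, at 8466 against 8556 CPM, and Rps27l, at 2107 against 2129 CPM, had log2 ratios of -0.02 and -0.01. Median depth was 14030 UMIs with Sycp3 only and 18302 with Pou5f1 only, and globin UMIs were 0.583% and 0.402%; their part in the result was not tested.

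**Figure D5:**
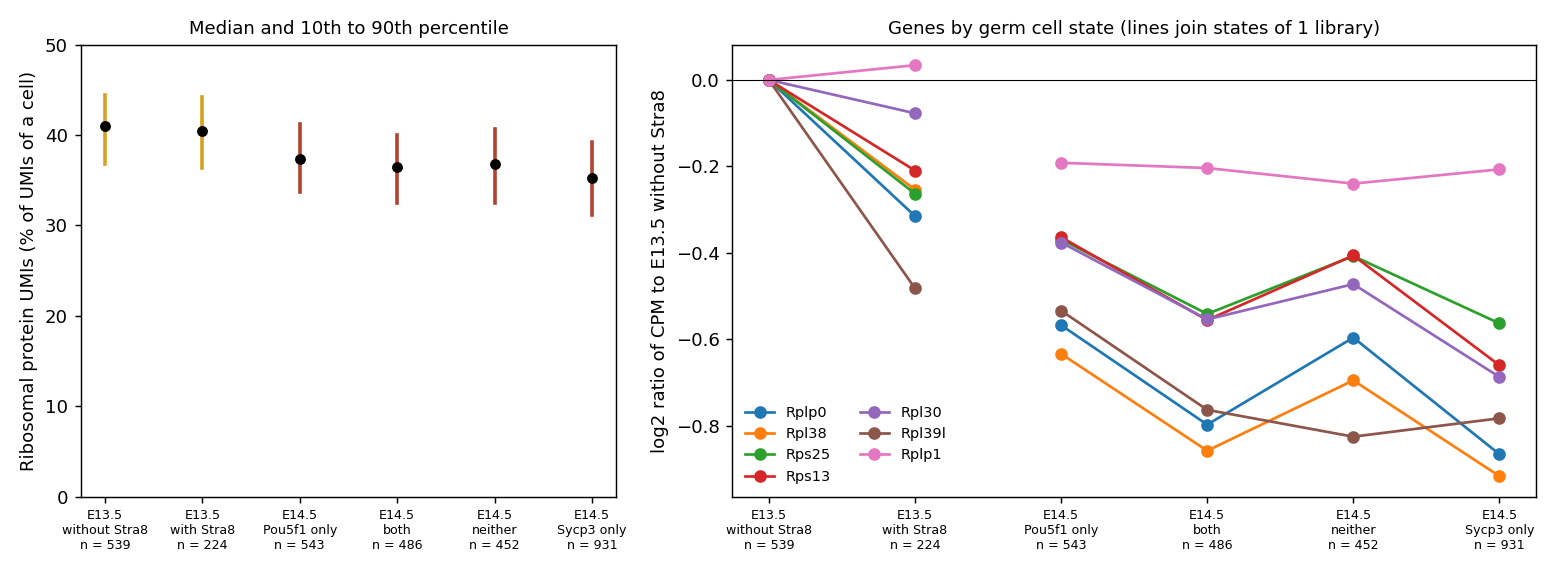
Left, median (black point) and 10th to 90th percentile (line) of the core share of UMIs per germ cell, by state within the E13.5 and E14.5 libraries. Right, log2 ratio of CPM to E13.5 cells without Stra8 for 7 members, with lines joining states of 1 library. Rplp0, Rpl38, Rps25, Rps13 and Rpl39l lie lower in cells with Stra8 and in cells with Sycp3 only than in their counterparts, and Rplp1 differs little.

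Further genes of the translation machinery were read from lists. Among ribosomal proteins whose symbols fall outside the rule, Rpsa had log2 germ to somatic ratios of 0.34, 0.10, 0.39 and 0.35, and 0 of 4 were called at any stage (3 were called higher at E11.5 with the total that left out mitochondrial, globin and ribosomal protein genes). Ribosome biogenesis factors, which process ribosomal RNA and assemble the subunits in the nucleolus, were higher in germ cells up to E13.5. Of 29, 29, 30 and 29 tested, 15, 19, 19 and 2 were called higher and 0, 0, 0 and 5 lower, with median log2 ratios of 0.65, 0.71, 0.89 and -0.08. Of all genes tested, 20%, 23.9%, 27.7% and 27.8% were called higher and 43.0%, 37.2%, 36.4% and 33.4% lower, so the upward count was above that background at the first 3 stages and below it at E14.5. Rrp9, a component of the U3 particle, had 2.12 at the first stage and -0.71 at the last, Gnl3 1.79 and -0.32, and Nhp2 1.85 and 0.36.

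Within germ cells, 13 of 29 biogenesis factors were called lower at the last stage than at the first and 1 higher, with a median of -0.41, where 16.6% of all genes tested were called lower and 37.0% higher, with a median of 0.29. Rrp9 stood at 125 and 22.2 CPM, Nop10 at 669 and 251 CPM, Gnl3 at 250 and 95 CPM and Rrn3, an initiation factor of RNA polymerase I, at 79.8 and 33.6 CPM. Ltv1, which acts in small subunit maturation, was the exception, at 41.2 and 76.8 CPM. In somatic cells 3 of 28 were called higher and 0 lower, where 9.97% and 7.81% of all genes were. Translation factors had 2 of 25 called higher and 7 lower in germ cells (37.0% and 16.6% of all genes), among the latter Eif4ebp1, the inhibitor of the cap-binding protein, at 291 and 95.8 CPM. Larp1, which binds the pyrimidine-rich start of ribosomal protein mRNAs, had germ cell levels of 51.9 and 32.8 CPM and somatic levels of 25.4 and 27.6 CPM at these stages. Mitochondrial ribosomal protein genes had 19, 26, 26 and 19 of 76, 75, 75 and 75 called higher in germ cells and 5, 5, 8 and 11 lower. Of all genes, 20%, 23.9%, 27.7% and 27.8% were called higher and 43.0%, 37.2%, 36.4% and 33.4% lower. Beside the same shares, translation factors had 3, 5, 5 and 2 of 25 called higher in germ cells than in somatic cells. Called lower were 3, 4, 3 and 5 of them, with median log2 ratios of -0.03, -0.13, -0.01 and -0.18. Of the 10 regulators, 5, 5, 6 and 7 were tested, and 2, 2, 3 and 2 were called higher in germ cells. Called lower were 1, 1, 1 and 2, to be read beside the shares of all genes given above. The median log2 ratios of the regulators were -0.31, -0.08, 0.47 and -0.35. Mtor was called higher at all 4 stages, with log2 ratios of 1.42, 1.59, 1.99 and 1.94. Myc was near the floor in germ cells, at 0.757 and 0.811 CPM at E11.5 and E14.5, beside 7.09 and 20.1 CPM in somatic cells.

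The start sites were looked at for the pairs, as a feature that the choice by symbol did not use. Windows around the start came from the RefSeq promoter table (GRCm38.p6), which held 56 of the 76 core genes and 13635 genes of the data. The other genes were not searched. The tract searched was a C followed by at least 4 further C or T bases that began within 5 bases of the annotated start, on the transcribed strand. It was found in 27 of the 56 core genes (48.2%), in 2 of 7 l paralogs and in 23.4% of 13635 genes of the data. A gene counted if any of its listed starts had the tract. The windows of 30 bases are shown for the pairs printed above, centred on the start. Capitals run from the match nearest the start to the end of its tract. In Rps27 the ct just before the capitals belongs to the same tract. The windows lie at chrX:37085208-37085237 (minus strand), chr16:10170213-10170242 (plus), chr3:90213634-90213663 (minus) and chr9:66946071-66946100 (plus).
Rpl39: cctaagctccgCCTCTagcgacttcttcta
Rpl39l: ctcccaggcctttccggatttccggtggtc
Rps27: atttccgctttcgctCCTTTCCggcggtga
Rps27l: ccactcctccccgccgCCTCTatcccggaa
Such a tract began within 5 bases of the start for Rpl39, Rps27, Rps27l and Rpl22l1. Rps27l has 2 listed starts, and the window shown was picked because it holds the tract. None began there for Rpl39l, Rpl10l, Rpl36al, Rpl3l and Rpl7l1, although a run of C and T can lie farther from the start, as in the window of Rpl39l. Among core genes, none began there for Rpl10, the partner of Rpl10l, or for Rplp0 either. The other partners are not given here. A match depends on the annotated start being the one used, which a 3′ count does not show.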

How the data were processed

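Single-cell libraries of XX gonads at 4 stages were analysed, 1 per stage. Per the submitters' processing notes, Cell Ranger 2.2.0 and the mm10 build were used; filters are not given in the sources used here. The table deposited by the authors holds natural log values, ln(1 + UMIs of a gene / UMIs of the cell × 10000), a unit read from the values. The UMIs were recovered from them: 69792436 values (100%) turned out as whole numbers of UMIs (tolerance 1e-06) once divided by what 1 UMI is worth in that cell. The members and lists were chosen with earlier results of these data known.

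Cells with under 200 genes (none) or over 20% mitochondrial UMIs (3, 1, 1 and 0 cells) were left out, as were 111, 87, 79 and 85 doublets called by a Scrublet-type score in each library (assumed rate 0.06; 2 simulated doublets per cell). Cells with 2 germ cell markers (123, 101, 136 and 159) entered neither class. Erythroid cells had at least 5% globin UMIs and fewer than 3 germ cell markers, whereas germ cells had no globin limit. Somatic cells took a "-like" name with at least 3 of 6 markers of 1 list and more than of any other. UMIs were summed per class and stage. Sums have exact Poisson intervals, shares Clopper-Pearson intervals and log2 ratios exact binomial ones, without a test, because 1 library per stage leaves no replicate. A count of 0 allows up to 3. Named were all l paralogs with their partners, the 8 core genes with the largest mean germ to somatic log2 ratio (absolute value), the 8 in germ cells and the 4 in somatic cells with the largest E14.5 to E11.5 ratio, and the X-linked genes. Rpl19 and genes of the lists were named after their values were seen. The lists were ribosomal proteins outside the rule (5 symbols, 4 in the table), translation factors (25), ribosome biogenesis (30), regulators (10) and mitochondrial ribosomal proteins (77). The counting rule was run on simulated counts with Poisson error only, which hold no spread between libraries or embryos. Alternatives changed the class rules, doublets, weighting, total, depth, fold and scaling. Python 3.11.15 with numpy 2.4.6, scipy 1.17.1 and scikit-learn 1.9.0 was used.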

Additional observations from a re-analysis of the deposited data

Results flagged for a closer look

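Between E11.5 and E14.5 germ cells and somatic cells moved in opposite directions in the following values, with 1 library per stage, so that the difference between the classes was not tested. The log2 ratio of the core ribosomal protein share was -0.14 in germ cells and 0.19 in somatic cells. For Rplp0 the values were -1.19 and 0.40, for Rps25 -0.81 and 0.13, for Rps13 -0.74 and 0.16, for Rps12 -0.65 and 0.37, and for Rpl30 -0.60 and 0.072. Step by step, the core share differed in direction only from E11.5 to E12.5, with -0.055 in germ cells and 0.25 in somatic cells. From E13.5 to E14.5 it was lower in both classes, by -0.16 and -0.10.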

How the results depend on the processing

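Values are log2 ratios of the core share, germ to somatic at E11.5 to E14.5 in order, then E14.5 to E11.5 in germ and somatic cells. The reported ones are 0.55, 0.25, 0.28 and 0.22, then -0.14 and 0.19. At least 4 germ cell markers gave 0.54, 0.25, 0.28 and 0.22, then -0.13 and 0.19. Germ cells under 1% globin UMIs gave 0.55, 0.25, 0.28 and 0.23, then -0.14 and 0.19. Somatic cells with 0 germ cell markers gave 0.55, 0.25, 0.29 and 0.22, then -0.14 and 0.19. Keeping called doublets gave 0.55, 0.25, 0.28 and 0.22, then -0.14 and 0.19. The mean of per-cell shares gave 0.55, 0.25, 0.30 and 0.22, then -0.16 and 0.18. A total without mitochondrial and globin genes gave 0.55, 0.25, 0.27 and 0.21, then -0.14 and 0.19. A minimum of 9791 UMIs per cell gave 0.55, 0.25, 0.24 and 0.22, then -0.14 and 0.19. No alternative turned a sign. The Rpl39l part of its pair was 7.83% at E11.5 with at least 4 markers and 3.89% at E13.5 as a mean of per-cell shares, and within the counting interval otherwise. Core genes past the rule in either direction, germ against somatic, numbered 28, 10, 10 and 11. They numbered 65, 18, 22 and 17 with a total that also left out ribosomal protein genes, and 61, 25, 33 and 36 at a log2 limit of 0.32. At 2-fold they numbered 4, 1, 1 and 1, and with the median of all genes at 0 they numbered 70, 19, 16 and 12. Lower in germ cells were 1 at E13.5 and 5 at E14.5 at that limit, and 1 at E14.5 otherwise. The genes tested numbered 6141, 6348, 6512 and 6699. At that limit 1715, 2041, 2375 and 2502 of them were called higher and 3161, 2868, 2809 and 2720 lower. At 2-fold 711, 902, 1108 and 1107 were called higher and 1930, 1769, 1765 and 1650 lower. Between E11.5 and E14.5 in germ cells they numbered 8, all lower at E14.5. At a log2 limit of 0.32 they numbered 24, with 20 lower and 4 higher. The 2 at 2-fold, 12 with that total and 23 with the median of all genes at 0 were all lower. Of 5736 genes tested, 1424 were called lower and 2795 higher at that limit, and 461 lower and 1278 higher at 2-fold. With the median at 0, 1467 were called lower and 1516 higher, and with that total 1455 and 2532. In somatic cells they numbered 0, and 2 with that total, both higher. At a log2 limit of 0.32 they numbered 13, with 12 higher and 1 lower, where 1262 of 6040 genes tested were called higher and 1255 lower. With that total, germ against somatic, 2336, 2243, 2692 and 2642 of all genes were called higher and 2653, 2806, 2777 and 2637 lower. The counts thus depend on the fold and the scaling. No paired analysis was possible because each stage has 1 library. Counting error is small for core genes, and the spread between embryos or libraries is unknown. For Rpl10l and Rpl3l the depth sets the limit in somatic cells.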
